A study of Mus musculus with 2 samples.

Results

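Pmel, Dct, Tyr, Tyrp1, Mlana, Slc45a2, Gpnmb and Mitf are 8 genes of pigment synthesis and of the melanosome, chosen by name from the 32285 genes of the count files. Their RNA was followed in 2 single-cell libraries of mouse retina, in droplets that hold retinal pigment epithelium (RPE) against all other droplets, and after light damage against control. An RPE droplet is one in which Rpe65, Rgr, Rdh5 and Ttr together made at least 0.3% of the spliced and ambiguous unique molecular identifiers (UMIs), so none of the 8 genes took part in choosing it. By this rule 161 of 3669 kept droplets were RPE in the control library and 309 of 5593 in the light damage library. Few droplets lay near the limit, 7 control and 17 light damage droplets between 0.2% and 0.3% and 2 and 8 between 0.3% and 0.4%.

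Both libraries came from mice of 6 to 9 weeks, of both sexes, on a Balb-C/CD1 background, with a pair of floxed Tgfbr2 alleles (functionally wild type, as the study's methods give it) and homozygous for the leucine variant of RPE65. The control mice were adapted in cyclic dim light (under 50 lux), then kept in complete darkness for 18 h, and received no light damage. The light damage mice had the same dim light and 18 h of darkness, then 30 min of cool white fluorescent light at 5000 lux and 6 h of recovery in dim light. The dissection was of the retina, dead cells were removed on magnetic beads, and 1 library was made per group from the retinae of 3 to 5 pooled mice, so no test between conditions was possible and every interval below is a 95% interval of counting error alone, without the spread between mice or between libraries. BALB/c and CD-1 mice are albino, since they carry a loss-of-function missense allele of Tyr, which does not remove the transcript, and these counts of RNA do not show the genotype.

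The RPE is a single layer of pigmented cells behind the photoreceptors that recycles retinal, the light-sensitive part of the visual pigments, and takes up shed outer segments. In pigmented animals it makes melanin in melanosomes, lysosome-related organelles in which fibres of PMEL form a scaffold, tyrosinase (TYR) oxidises tyrosine, and TYRP1 and the dopachrome tautomerase DCT act on later intermediates. MITF, a transcription factor of the basic helix-loop-helix leucine zipper type, binds letters such as CATGTG before the starts of pigment genes.

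The genes lie apart in the genome. On the GRCm38 build, Pmel is at chr10:128704195-128720238 on the plus strand, Dct at chr14:118012790-118052244 on the minus strand, Tyr at chr7:87424771-87493512 on the minus strand and Tyrp1 at chr4:80834123-80851719 on the plus strand. Mlana is at chr19:29697824-29708634, Slc45a2 at chr15:11000721-11029233, Gpnmb at chr6:49036546-49070929 and Mitf at chr6:97807052-98021349, each on the plus strand. Pmel overlaps Dgka and Cdk2, and Dct overlaps 4930435M08Rik, on the opposite strand, and the authors counted reads of the sense strand only.

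Promoter windows of 250 bases before to 50 bases after the start are shown for the 3 melanogenic enzymes, since they share a run of letters, and for Gpnmb, since its level after light damage is described below beside that of Dct. They are from RefSeq on GRCm38.p6, the C57BL/6J reference and not the genome of these mice, and are written 5′ to 3′ on the strand of the gene. Capitals mark CATGTG or its reverse complement CACATG in the enzymes, and TGACTCA, the letters bound by AP-1 factors, in Gpnmb.
Dct, chr14:118052197-118052496, minus strand: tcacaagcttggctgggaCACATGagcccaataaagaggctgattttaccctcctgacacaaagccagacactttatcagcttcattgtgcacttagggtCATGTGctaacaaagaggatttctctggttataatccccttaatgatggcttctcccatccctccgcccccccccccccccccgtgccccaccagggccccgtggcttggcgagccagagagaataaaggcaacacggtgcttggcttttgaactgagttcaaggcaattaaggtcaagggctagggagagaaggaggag
Tyr, chr7:87493463-87493762, minus strand: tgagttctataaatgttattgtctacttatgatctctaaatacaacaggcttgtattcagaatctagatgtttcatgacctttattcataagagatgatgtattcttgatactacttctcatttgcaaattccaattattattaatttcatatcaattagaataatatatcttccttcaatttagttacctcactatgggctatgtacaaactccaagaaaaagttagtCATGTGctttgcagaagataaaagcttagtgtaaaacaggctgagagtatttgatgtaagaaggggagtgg
Tyrp1, chr4:80833963-80834262, plus strand: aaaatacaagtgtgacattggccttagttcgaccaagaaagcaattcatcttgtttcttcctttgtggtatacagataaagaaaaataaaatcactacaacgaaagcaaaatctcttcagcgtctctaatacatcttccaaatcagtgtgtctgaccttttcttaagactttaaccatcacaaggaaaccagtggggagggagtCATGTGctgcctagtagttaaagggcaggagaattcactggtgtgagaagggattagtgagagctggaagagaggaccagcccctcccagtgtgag
Gpnmb, chr6:49036268-49036567, plus strand: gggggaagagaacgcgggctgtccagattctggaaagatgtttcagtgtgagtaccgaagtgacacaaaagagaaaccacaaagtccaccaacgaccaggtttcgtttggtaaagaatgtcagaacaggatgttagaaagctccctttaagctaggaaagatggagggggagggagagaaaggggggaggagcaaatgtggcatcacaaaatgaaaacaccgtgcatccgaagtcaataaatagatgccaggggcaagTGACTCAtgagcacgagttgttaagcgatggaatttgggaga

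Of the 8 genes, 5 had such a window, Mitf with 3 of them. CATGTG was found, on either strand, in 14.2% of 32851 promoter windows of 27025 genes. It begins 21 bases before the start of Tyr, 46 bases before that of Tyrp1, and 232 and 150 bases before that of Dct. Around it the 3 windows share the 10 letters GTCATGTGCT, on the strand of the gene in each, a run found in 61 of the 32851 windows (0.186%, from 42 genes). This run was picked as the longest around CATGTG that these 3 windows share, so its rarity over all windows is a description and no test. The palindrome CACGTG, in 7.15% of windows, was in no window of the 5 genes. TAATCC, the letters bound by OTX2, was in 7.06% of windows, and it was found in those of Dct and Tyrp1 and in 1 of the 3 of Mitf. TGACTCA, in 5.2% of windows, was found in that of Gpnmb alone, just after its start. A match of letters is a description and does not show that a factor binds there.

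The control library held 30605284 UMIs over 542576 barcodes and the light damage library 54413601 UMIs over 944146 barcodes. Of these UMIs, 18.7% and 32.7% were unspliced. The RPE droplets held 695991 and 2406196 spliced and ambiguous UMIs, with medians of 2515 and 5589 per droplet. Levels below are spliced and ambiguous UMIs of a gene relative to the summed spliced and ambiguous UMIs of a group, scaled to 1e+06 (CPM). RPE droplets also held rod transcripts, and the median share of 8 rod genes in them was 0.568% in control and 0.118% in light damage RPE. Of the kept droplets, 7 barcodes were found in both libraries, none of them RPE droplets. The identity of the RPE droplets was checked with 10 genes outside the rule, of which 9 had enough UMIs and all 9 (among them Lrat, Rlbp1, Stra6 and Kcnj13) were called higher in RPE than in other droplets in both libraries. Best1, a chloride channel of the RPE, had 0 and 1 UMI.

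All 8 genes were higher in RPE than in other droplets in both libraries. A gene is called where the whole interval of its ratio lies beyond a 2-fold difference. By this rule 8 of 8 genes were called higher in the control library, where 13.7% of 12934 genes tested were called higher and 11.4% lower. In the light damage library 8 of 8 were called higher too, where 13.7% of 15517 genes were called higher and 24.3% lower.

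Pmel, which encodes the fibril-forming protein of the melanosome, had 183 UMIs in control RPE (263 CPM, interval 226 to 304) and 2 in the 3508 other control droplets. In the light damage library it had 753 UMIs in RPE (313 CPM, 291 to 336) and 8 in the 5284 other droplets. Its level was 1428-fold (390- to 11883-fold) higher in control RPE than in other droplets and 793-fold higher in light damage RPE. Most of its RPE UMIs, 82.5% and 68.7%, lay in droplets with little Rpe65 and Rgr, which are described below and which the rule takes in through Ttr and Rdh5. Which cells these droplets hold was not tested. In RPE droplets with at least 0.4% of Rpe65 and Rgr alone, the log2 ratio of Pmel over other droplets was 8.18 (6.20 to 11.28) in the control and 5.87 (4.77 to 7.18) after light damage. Mlana, a small melanosome membrane protein that associates with PMEL, had 94 UMIs in control RPE (135 CPM, 109 to 165) against 2 elsewhere. In light damage RPE it had 205 UMIs (85.2 CPM, 73.9 to 97.7) against 2 elsewhere.

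Among the enzymes, Tyr had 90 UMIs in control RPE (129 CPM, 104 to 159) and 299 in light damage RPE (124 CPM, 111 to 139), against 1 and 5 UMIs in the other droplets. Tyr RNA was thus readily counted in these albino mice. Tyrp1 had 331 UMIs in control RPE (476 CPM, 426 to 530) and 1074 in light damage RPE (446 CPM, 420 to 474), against 3 and 8 UMIs elsewhere. Dct had 1895 UMIs in control RPE (2723 CPM, 2602 to 2848) and 14447 in light damage RPE (6004 CPM, 5907 to 6103). In other droplets it had 17 (1.56 CPM) and 124 (6.11 CPM), so that its level in RPE was 1740-fold (1084- to 2993-fold) and 982-fold (823- to 1182-fold) higher.

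Slc45a2, a transporter of the melanosome membrane that bears on its pH, had the fewest UMIs of the 8 genes. It had 19 UMIs in control RPE (27.3 CPM, 16.4 to 42.6) and 82 in light damage RPE (34.1 CPM, 27.1 to 42.3). No spliced or ambiguous UMI of it was found in any other droplet, so against a floor of 3 UMIs over the group it was at least 98.9-fold higher in control RPE and at least 230-fold higher in light damage RPE. The exact intervals of these ratios began at 72.8-fold and 183-fold. Unspliced UMIs of Slc45a2 numbered 0 in other control droplets and 17 in other light damage droplets.

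Gpnmb and Mitf were less restricted to RPE. Gpnmb, a transmembrane glycoprotein of melanosomes and lysosomes related to PMEL, had 162 UMIs in control RPE (233 CPM, 198 to 271) and 944 in light damage RPE (392 CPM, 368 to 418). With 16 and 45 UMIs elsewhere, it was 158-fold (94.4- to 283-fold) and 177-fold (131- to 244-fold) higher in RPE. Mitf had 71 UMIs in control RPE (102 CPM, 79.7 to 129) and 149 in light damage RPE (61.9 CPM, 52.4 to 72.7). In other droplets it had 49 and 166 UMIs, so that it was 22.6-fold (15.5- to 33.2-fold) and 7.57-fold (6.02- to 9.5-fold) higher in RPE.

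**Figure D1:**
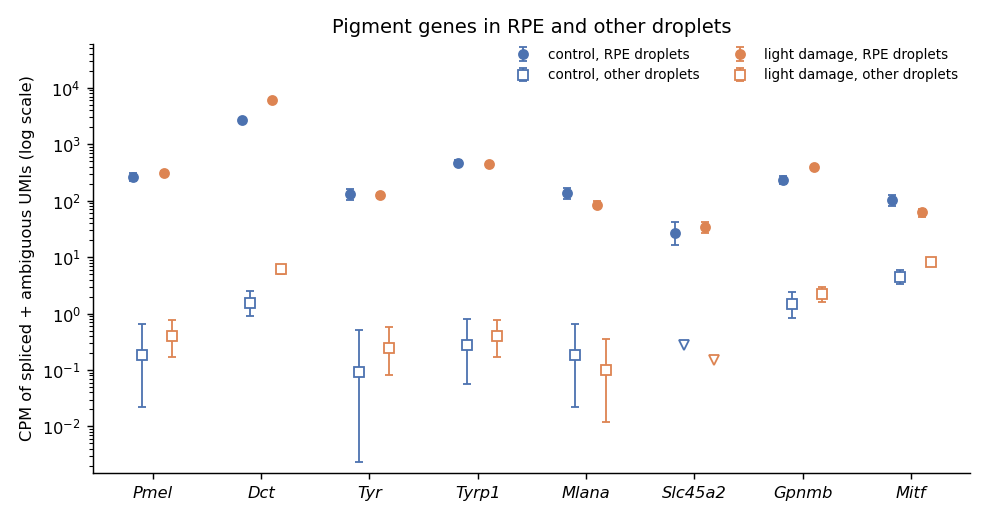
Levels of the 8 genes in CPM (log axis) in RPE droplets (filled circles) and in all other kept droplets (open squares). The control library is drawn in blue and the light damage library in orange. Bars are exact 95% intervals of counting error. A triangle marks the floor of 3 UMIs for Slc45a2, which was at 0 outside RPE. In both libraries each gene lies higher in RPE than elsewhere, from 7.57-fold for Mitf after light damage to 1740-fold for Dct in the control.

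Outside RPE the 8 genes were found in few droplets. In the droplets of rods with a high unspliced share, a cell type that does not make melanin, 5 of 808 control droplets (0.619%, with a median of 1384.5 spliced and ambiguous UMIs per droplet) and 66 of 3091 light damage droplets (2.14%, median of 2714) held a Dct UMI. In RPE these shares were 91.3% and 96.1%.

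Gpnmb outside RPE was largely found in 1 small group of droplets, those in which bipolar and amacrine marker genes made at least 1% of UMIs. These were 19 control and 17 light damage droplets, and they held 12 of the 16 control and 26 of the 45 light damage Gpnmb UMIs outside RPE (213 and 157 CPM). Unspliced Gpnmb was more abundant there still, with 26 of its 29 UMIs outside RPE in the control and 77 of its 97 in the light damage library. Unspliced UMIs made 68.4% (51.3% to 82.5%) and 74.8% (65.2% to 82.8%) of all Gpnmb UMIs in this group, against 13.4% and 7.0% in RPE. Over all genes, unspliced UMIs made 48.3% and 52.6% of this group and 4.96% and 6.83% of RPE, so much of this contrast belongs to the droplets. Among 11 control and 28 light damage droplets with microglial markers, cells in which Gpnmb is known from disease states, no spliced or ambiguous Gpnmb UMI was found. At this depth 3 UMIs, the floor, would have been a level of 112 CPM in the control and of 10.1 CPM after light damage.

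Mitf outside RPE was mostly unspliced. Other droplets held 49 spliced or ambiguous and 282 unspliced Mitf UMIs in the control library, and 166 and 1335 in the light damage library, so that 85.2% (80.9% to 88.8%) and 88.9% (87.2% to 90.5%) were unspliced. In RPE the unspliced share of Mitf was 7.79% (2.91% to 16.2%) and 8.59% (4.78% to 14%). Over all genes the unspliced share was 22.9% and 41.2% in other droplets and 4.96% and 6.83% in RPE. Rods with a high unspliced share held 223 and 1149 of the unspliced Mitf UMIs. Over all genes, 55.1% and 51.7% of the UMIs of these rods were unspliced, the share by which they were grouped. The group with microglial markers held 66 in the light damage library, where the unspliced Mitf level (417 CPM of unspliced UMIs) was above that in light damage RPE (79.4 CPM of unspliced UMIs). In unspliced UMIs alone the ratio of Mitf between RPE and other droplets was 0.92 (-0.54 to 2.06) on the log2 scale in the control and -0.24 (-1.12 to 0.51) after light damage.

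**Figure D2:**
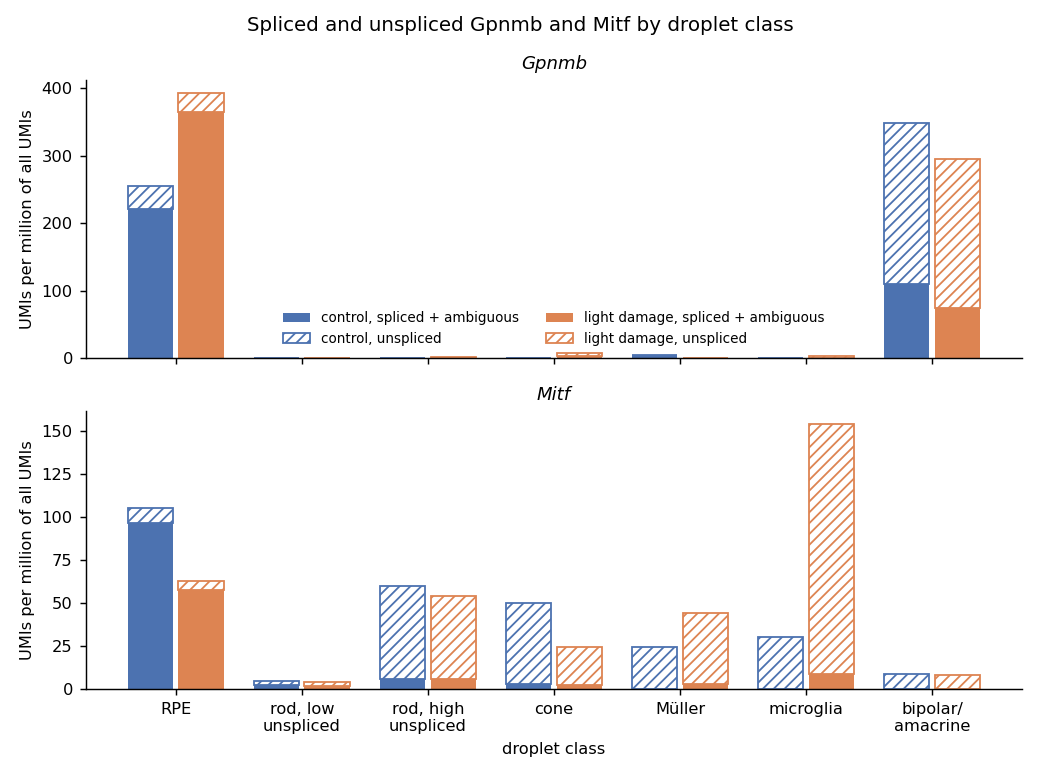
Spliced and ambiguous (plain) and unspliced (hatched) UMIs of Gpnmb and Mitf, stacked, scaled to 1e+06 UMIs of all kinds of a group of droplets, in both libraries. Gpnmb outside RPE stands in the group with bipolar and amacrine markers, and Mitf outside RPE is mostly unspliced, 85.2% of its control and 88.9% of its light damage UMIs over all other droplets. Over all genes, 22.9% and 41.2% of the UMIs of the other droplets were unspliced.

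Between the libraries, Dct was the gene of the 8 that differed most in RPE, and it was the single one called. Its level rose from 2723 CPM in the control to 6004 CPM after light damage, and the log2 ratio of light damage over control was 1.14 (1.07 to 1.21). With 1 of 8 genes called higher and 0 lower, the count stands beside 2.43% of 10434 genes called higher and 0.776% called lower in the same comparison. The median gene stood at -0.11 on the log2 scale, so the rise of Dct relative to it was 1.25.

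Unspliced Dct RNA, which is made before splicing, went the same way. It had 13 UMIs in control RPE and 310 in light damage RPE (358 and 1758 CPM of unspliced UMIs), a log2 ratio of 2.30 (1.5 to 3.22). The unspliced share of Dct was 0.681% in control and 2.10% in light damage RPE, beside 4.96% and 6.83% over all genes. The log2 ratio of unspliced Gpnmb was -0.77 (-1.45 to -0.05), on 25 and 71 UMIs in control and light damage RPE. Tyrp1, with 5 and 23 unspliced UMIs, had -0.08 (-1.50 to 1.67), and Mitf, with 6 and 14, had -1.06 (-2.53 to 0.61). Pmel, Tyr, Mlana and Slc45a2 had at most 1 unspliced UMI in control and at most 3 in light damage RPE. These counts are too few for a comparison with Dct.

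The other 7 genes had values on both sides of 0. Gpnmb had a log2 ratio of 0.75 (0.51 to 1.00) and Pmel of 0.25 (0.02 to 0.49). The enzymes Tyr and Tyrp1 had -0.06 (-0.40 to 0.30) and -0.09 (-0.27 to 0.09). Slc45a2 had 0.32 (-0.41 to 1.12). Mlana had -0.66 (-1.02 to -0.30) and Mitf -0.72 (-1.14 to -0.29), below the control but not by 2-fold over the whole interval. Of the 3 enzymes of melanin synthesis, Dct was called and the intervals of Tyr and Tyrp1 held 0.

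The 8 genes together made 4088 CPM (3939 to 4241) of control RPE and 7461 CPM (7352 to 7571) of light damage RPE, a log2 ratio of 0.87 (0.81 to 0.93). Dct made 1895 and 14447 of these UMIs, and without it the other 7 genes summed to 950 and 3506 UMIs (1365 and 1457 CPM), which differed by 0.09 (-0.01 to 0.20) on the log2 scale. The log2 ratios of the genes of the rule were -1.19 for Rpe65, the isomerase of the visual cycle, -0.61 for Rgr, -0.24 for Rdh5 and -0.26 for Ttr. These values chose the droplets and are given as a description.

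**Figure D3:**
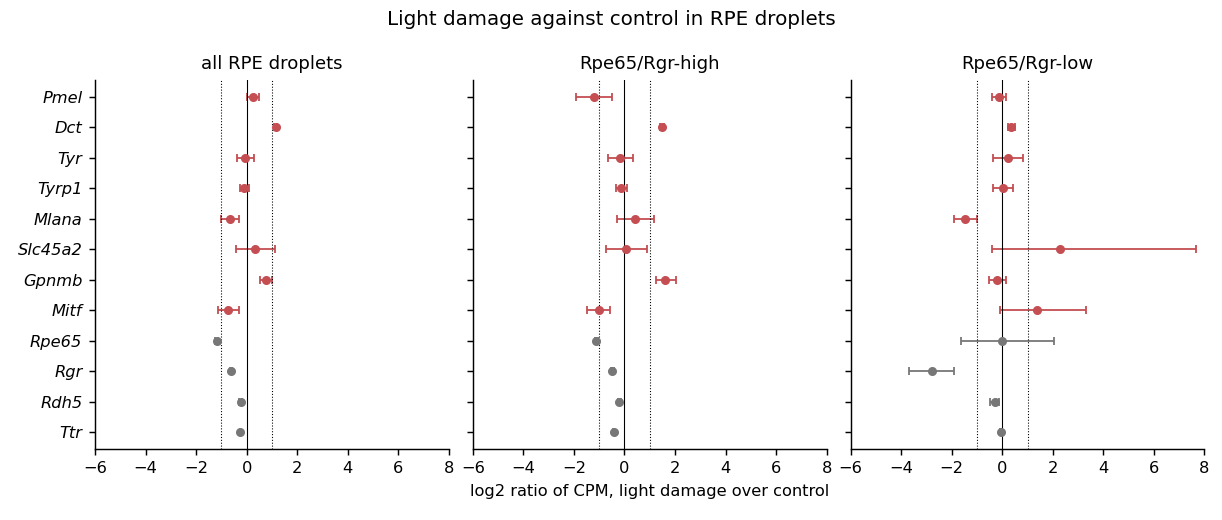
Log2 ratios of light damage over control CPM for the 8 genes (red) and the 4 genes of the rule (grey), in all RPE droplets and in those with much and with little Rpe65 and Rgr, with exact 95% intervals of counting error; dotted lines mark 2-fold. Dct lies beyond 2-fold in all RPE (1.14) and with Gpnmb in droplets with much Rpe65 and Rgr (1.48 and 1.62), and Mlana lies below in those with little (-1.47).

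Droplets of the light damage library held more UMIs, and the level of Dct was compared at matched depth. In RPE droplets under 2000, from 2000 to 4000, from 4000 to 8000 and above 8000 UMIs, Dct had 2028, 2441, 2642 and 3068 CPM in the control library. In the same ranges it had 4959, 4917, 6130 and 6118 CPM after light damage. The light damage level was above the control level in all 4 ranges, and the intervals did not overlap in any of them. Over single droplets the median level was 1620 CPM in control and 5093 CPM in light damage RPE.

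Dct was found in nearly every RPE droplet, and the other genes in a part of them. The share with a UMI was 91.3% (85.8% to 95.2%) in control and 96.1% (93.3% to 98.0%) in light damage RPE for Dct. With each droplet thinned to 1000 UMIs (160 and 303 droplets were deep enough) it was 75.6% and 91.6%. For Tyr the unthinned shares were 23.6% and 39.5%, and the thinned ones 10.2% and 11.5%. For Tyrp1 they were 55.3% and 72.2%, and 29.5% and 33.5% when thinned. Tyr and Tyrp1 were thus close between the libraries once depth was matched.

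The thinned shares of the remaining genes were 9.80% and 9.39% for Pmel, 8.87% and 6.24% for Mlana, 2.10% and 3.70% for Slc45a2, 15.2% and 22.0% for Gpnmb, and 8.40% and 6.13% for Mitf. A control RPE droplet held UMIs of a median of 2 of the 8 genes and a light damage RPE droplet of 3. None of the 8 was found in 10 droplets of each library, and all 8 in 0 control and 9 light damage droplets, whose median of spliced and ambiguous UMIs was 12875.

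Pmel was spread unevenly over RPE droplets, unlike Dct. It was found in 22 of 161 control RPE droplets (13.7%) and 56 of 309 light damage RPE droplets (18.1%), and 1 droplet held 50 of the 183 control UMIs (27.3%) and another 143 of the 753 light damage UMIs (19.0%). These 2 droplets held little Rpe65 and Rgr, together 0.0999% and 0.00668% of UMIs. RPE droplets were then split on the share of Rpe65 and Rgr, a split chosen after these values had been seen, so the values across it and within its sides are a description from which no call is drawn. The split rests on genes of the rule whose levels differed between the libraries, so it may take unlike droplets from each. It sets apart ranges of the share and no cell types.

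The share of Rpe65 and Rgr was under 0.1% in 27 control and 55 light damage droplets (16.8% and 17.8% of RPE droplets), from 0.1% to 0.4% in 8 and 33, and at least 0.4% in 126 and 221 (78.3% and 71.5%). Of the droplets under 0.1%, 18 and 34 held no UMI of either gene and had passed the rule on Ttr and Rdh5. Depth was alike across the split, with medians of 2337 and 2590 spliced and ambiguous UMIs under 0.1% and from 0.4% in the control library and of 5535 and 5630 after light damage.

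In droplets with little Rpe65 and Rgr, Pmel had 151 UMIs in the control (1552 CPM) and 517 after light damage (1422 CPM). In those with much, it had 31 (53.2 CPM) and 42 (23.1 CPM). The droplets with little held 82.5% of the Pmel UMIs of control RPE and 68.7% of those of light damage RPE. A Pmel UMI was found in 66.7% and 54.5% of droplets with little, against 2.38% (3 of 126) and 8.60% (19 of 221) of droplets with much. In the control library, 21 of the 31 UMIs in droplets with much Rpe65 and Rgr lay in 1 droplet.

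Mlana, Gpnmb and Tyr stood higher in the same droplets in both libraries. Mlana had 730 CPM with little and 36.1 CPM with much Rpe65 and Rgr in the control, and 264 and 47.9 CPM after light damage. Gpnmb had 956 and 99.6 CPM in the control and 836 and 306 CPM after light damage. Tyr had 308 and 87.6 CPM in the control and 357 and 78.2 CPM after light damage.

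In the control library, the log2 ratios of droplets with little over those with much Rpe65 and Rgr were 4.87 for Pmel (4.30 to 5.47), 4.34 for Mlana (3.62 to 5.12), 3.26 for Gpnmb (2.77 to 3.76), 1.82 for Tyr (1.11 to 2.49) and 1.51 for Dct (1.37 to 1.66). Tyrp1 had 0.60 (0.18 to 1.01), Slc45a2 had -1.59 (-6.97 to 1.07) on 1 UMI in droplets with little, and Mitf had -1.48 (-3.40 to -0.06) on 4. In the light damage library they were 5.94 for Pmel (5.49 to 6.43), 2.46 for Mlana (2.03 to 2.90), 2.19 for Tyr (1.84 to 2.55) and 1.45 for Gpnmb (1.24 to 1.65).

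Dct differed less across the split after light damage than in the control. It had 5972 CPM with little and 2094 CPM with much Rpe65 and Rgr in the control, and 7641 and 5820 CPM after light damage, a log2 ratio of 0.39 (0.33 to 0.45). Its unspliced UMIs lay the other way in the light damage library, with 18 in droplets with little (420 CPM of unspliced UMIs) and 278 in droplets with much (2868 CPM of unspliced UMIs). Mitf had 107 CPM with little and 56.7 CPM with much in that library, a log2 ratio of 0.92 (0.35 to 1.46).

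**Figure D4:**
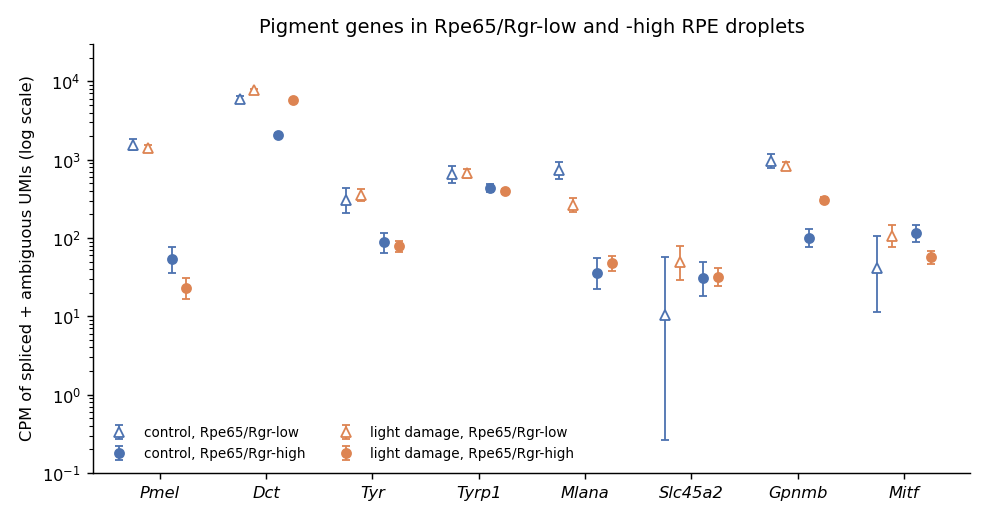
Levels of the 8 genes in CPM (log axis) in RPE droplets with under 0.1% (open triangles) and with at least 0.4% (filled circles) of Rpe65 and Rgr, per library, with exact 95% intervals of counting error. Pmel, Mlana, Gpnmb and Tyr lie higher in droplets with little Rpe65 and Rgr in both libraries, and Dct does so by more in the control (5972 against 2094 CPM) than after light damage (7641 against 5820 CPM).

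The genes of largest difference on the side of little Rpe65 and Rgr held, beside Pmel and Mlana, the cation channel Trpm1, known from bipolar cells and melanocytes (535 against 30.9 CPM in the control and 522 against 39.7 CPM after light damage), the lipoprotein lipase Lpl, the muscle-type cytochrome oxidase subunit Cox8b, and the rod or photoreceptor genes Sag, Gngt1, Pde6g and Nrl. The median share of the 8 rod genes was 3.69% with little and 0.310% with much in the control, and 0.143% and 0.114% after light damage. Summed over droplets the rod genes made 25904 CPM with little and 5515 CPM with much in the control, and 13795 and 2397 CPM after light damage. The part of rod RNA in these differences was not tested. On the side of much Rpe65 and Rgr, beside these 2 genes themselves, were Spock1, Ccnd1, Sema3c, Enpp2, Egr1, Parm1, Pltp and Trhde.

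The checking genes of RPE were present in droplets with little Rpe65 and Rgr, but mostly lower than in those with much. Over 9 genes the median log2 ratio was -1.70 in the control and -0.64 after light damage, and the highest was -0.56 and 0.004. The whole list of 10 summed to 6651 against 23599 CPM in the control and 9725 against 21063 CPM after light damage. Lrat, the lecithin retinol acyltransferase, had 278 against 2518 CPM in the control and 990 against 2518 CPM after light damage. The retinal-binding protein Rlbp1 had 1676 against 2478 CPM and 1477 against 2309 CPM. It is also among the Müller markers used here, and its control ratio was the highest of the 9. Of other cell types, the bipolar markers Grm6 and Isl1 were at 0 in droplets with little and with much, as were Zic1 and Wfdc1 of the ciliary epithelium. Trpm1, of the same list of bipolar and amacrine markers, went the other way. It had 535 against 30.9 CPM in the control and 522 against 39.7 CPM after light damage. Other markers of these lists are not reported here, and whether such cells were present was not tested. The neural crest factor Sox10, known from melanocytes, had 56 UMIs in control and 105 in light damage RPE, and Kit 15 and 28. Of the other melanocyte markers, Erbb3 had 0 and 0 UMIs, Mc1r, the melanocortin receptor, 1 and 0, and Ednrb 0 and 12, and the 6 markers of the list summed to 103 and 61.1 CPM. Sox10 had 20.6 CPM with little and 92.7 CPM with much Rpe65 and Rgr in the control, and 33.0 and 45.2 CPM after light damage. In control droplets with little, the 6 markers together had 4 UMIs. Whether melanocytes were among these droplets was not tested.

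Light damage and control were then compared within each side of the split. In droplets with much Rpe65 and Rgr, Dct had 2094 CPM in the control and 5820 CPM after light damage (log2 ratio 1.48, 1.39 to 1.56). Gpnmb had 99.6 and 306 CPM there (log2 ratio 1.62, 1.23 to 2.04). Unspliced Dct had 12 and 278 UMIs there (390 and 2868 CPM of unspliced UMIs), and unspliced Gpnmb had 16 and 39 (520 and 402 CPM of unspliced UMIs). The log2 ratio of unspliced RNA was 2.88 (2.05 to 3.85) for Dct and -0.37 (-1.24 to 0.57) for Gpnmb.

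The log2 ratio of Gpnmb was 1.44 with droplets from 0.1% of Rpe65 and Rgr, and 1.45 (0.998 to 1.92) with droplets from 0.8%, where Dct had 1.39. By depth, Gpnmb had 92.0, 97.7, 106 and 98.9 CPM over the 4 ranges of UMIs in control droplets with much Rpe65 and Rgr. In light damage droplets it had 33.3 CPM on 1 UMI in the lowest range, and then 233, 207 and 348 CPM. The intervals of the libraries overlapped in the lower 3 ranges and did not in the highest (65.7 to 143 CPM against 316 to 381 CPM). Dct in these droplets had 2189, 1898, 1736 and 2314 CPM in the control and 5162, 5319, 5135 and 6077 CPM after light damage, without overlap in any range.

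The other 6 genes in droplets with much Rpe65 and Rgr had values on both sides of 0. Tyr had -0.16 (-0.63 to 0.33), Tyrp1 -0.12 (-0.33 to 0.09), Slc45a2 0.05 (-0.74 to 0.90) and Mlana 0.41 (-0.29 to 1.17) on the log2 scale. Mitf had 115 CPM in the control and 56.7 CPM after light damage, a log2 ratio of -1.02 (-1.48 to -0.55). Pmel had -1.20 (-1.91 to -0.48), a value that rests on 3 control droplets with a Pmel UMI.

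In droplets with little Rpe65 and Rgr, Mlana had 71 UMIs (730 CPM) in the control and 96 (264 CPM) after light damage, a log2 ratio of -1.47 (-1.92 to -1.0). Of the 71 control UMIs, 3 of the 27 droplets held 16, 13 and 13. Dct had 0.36 (0.23 to 0.49), Gpnmb -0.19 (-0.53 to 0.16), Pmel -0.13 (-0.39 to 0.14), Tyr 0.21 (-0.37 to 0.84) and Tyrp1 0.02 (-0.38 to 0.44). Mitf had 1.38 (-0.09 to 3.33) on 4 control UMIs and Slc45a2 2.27 (-0.40 to 7.65) on 1.

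A list of 50 other genes of pigmentation was measured beside the 8. In RPE against other droplets, 35 had at least 50 UMIs in the control library, 12 of them called higher and 4 lower, and 41 in the light damage library, 16 higher and 7 lower. Over all genes with at least 50 UMIs, 11.5% were called higher and 15% lower in the control, and 13.3% and 31.2% in the light damage library. Among those higher in both were the melanosomal transporters Oca2 (224 against 0.0920 CPM in the control) and Slc24a5 (310 against 53.1 CPM), the receptor Gpr143 (80.5 CPM against 0 in the control), the copper transporter Atp7a, Rab27a, which tethers melanosomes, its partner Myrip, and the lysosomal protease Ctsd. Mreg and Lyst were called lower in both.

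Between light damage and control RPE, 30 of the 50 genes had at least 50 UMIs, with a median log2 ratio of 0.25. The median gene, at -0.11, is over genes with at least 50 UMIs in each library, so these values are not compared. Of these 30, 1 was called higher and 0 lower, where 3.46% of all genes with at least 50 UMIs were called higher and 0.695% lower, so nothing is read from the count. The minimum is on both libraries together, and a gene could pass it through the light damage library alone. Cd68, Tfe3, Tfeb and Lyst were among those that did, so their values are a description. The gene called was Cd68, a lysosomal membrane protein best known from macrophages, with 1 UMI in control and 95 in light damage RPE (1.44 and 39.5 CPM), a log2 ratio of 4.78 (2.27 to 10.10). Of its 95 UMIs, 92 lay in droplets with much Rpe65 and Rgr. The 10 microglial markers summed to 148 CPM in control and 106 CPM in light damage RPE, with 56 and 132 UMIs of Csf1r among them. C1qa, Cx3cr1, Aif1 and P2ry12 had 0 UMIs in light damage RPE, and C1qb and C1qc 1 each.

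The next largest ratios were those of Tfe3 at 1.70 (0.39 to 3.37) and Tfeb at 1.33 (0.20 to 2.71), transcription factors related to MITF, on 5 and 56 and on 7 and 61 UMIs. At the other end were Otx2 at -1.04 (-1.24 to -0.83), Sox10 at -0.88 (-1.36 to -0.39) and Usf1 at -0.79 (-1.62 to 0.09). Otx2, a homeobox factor that acts with MITF on pigment genes, had 451 CPM in control and 220 CPM in light damage RPE. In droplets with much Rpe65 and Rgr it had 472 CPM in the control and 182 CPM after light damage (log2 ratio -1.38, -1.61 to -1.14).

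Other melanosomal genes of the list were not called between the libraries. Oca2 had 0.32 (0.06 to 0.58), Slc24a5 0.34 (0.13 to 0.56), Gpr143 0.22 (-0.20 to 0.67) and Rab27a 0.35 (0.08 to 0.62) in all RPE. Atp7a had 1.16 (0.75 to 1.59), Lyst 1.31 (0.18 to 2.68) and Dtnbp1 1.08 (0.59 to 1.60).

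The genes with the most similar pattern to each gene were sought by the Pearson correlation of log2(CPM + 1) over 14 points, the groups of droplets in each library. These points share the RPE droplets as their extreme, so a high value says mainly that a gene is found in RPE, and it is given as a description. The nearest were Ermn for Pmel (0.997), Stra6 for Dct (0.987), Cldn1 for Tyr (0.983), Capn6 for Tyrp1 (0.999) and Igfbp6 for Mlana (0.999). Gpnmb and Mitf had lower values, 0.957 with Bmp7 and 0.961 with Rab27a. Over single RPE droplets the Spearman correlation of Dct with the other genes ran from -0.03 for Mitf to 0.52 for Gpnmb over 161 control droplets, and from 0.09 for Mitf to 0.37 for Mlana over 309 light damage droplets. All of these depend on the depth of the droplets, with which Dct had 0.21 and 0.25.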

How the data were processed

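Retinae of control and light-damaged mice gave 1 10x Genomics 3′ library each. The deposited values are counts of UMIs per barcode and gene, which the authors made by mapping with salmon 1.10.1 and alevin-fry 0.8.1 (the submitters' processing notes also name Cell Ranger 7.0.1 and mm10) against spliced and intronic mm10 sequence, sense strand only, in blocks of spliced, unspliced and ambiguous UMIs. The files hold every barcode, without normalization, and the later filters of the authors (empty droplets, doublets, ambient RNA) are not in them. Of 32285 gene IDs, 32235 were named from GENCODE vM21 on GRCm38.

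A droplet was kept if it held at least 1464 UMIs (control) or 1614 UMIs (light damage), where the ranked totals of barcodes have their inflection, and under 10% mitochondrial UMIs. The top 0.8% of Scrublet scores per 1000 droplets were left out as doublets, among them 22 RPE and 92 other droplets of the control and 19 and 257 of the light damage library. Other droplets were grouped by shares of marker genes, and rods were split at 25% unspliced UMIs. Barcodes with fewer than 50 UMIs gave the profile of free RNA. UMIs were summed per group, and exact 95% intervals were computed for CPM (Poisson), for shares (Clopper-Pearson) and for ratios (conditional binomial). They cover counting error only, and p-values were not computed with 1 library per group. A gene was tested with at least 10 UMIs over both sides and called where its whole interval lay past 2-fold. Where one side had 0 UMIs, its floor of 3 UMIs gave the bound of a fold. The median gene is the median log2 ratio of genes with at least 50 UMIs on each side.

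The 8 genes, the list of 50 pigmentation genes, the markers and the motifs were chosen with earlier results of these data known. All 8 genes are named, of the list those called and the 3 with the largest and the 3 with the smallest ratios among genes with at least 50 UMIs, and for each of the 8 the genes of most similar pattern. Other genes of the lists, named for their role, were chosen after their values were seen. Some genes that these rules name are not reported here. The split on Rpe65 and Rgr and its limits of 0.1% and 0.4% were set after the data had been seen. Simulated Poisson counts with known changes were used to test the intervals of ratios and the calls. The filters, the doublet removal and the choice of RPE droplets were not simulated, nor was a spread between droplets or mice. Alternatives were other limits for RPE droplets, UMIs, mitochondrial share, doublets, free RNA, unspliced UMIs, scaling, the call and the weight of droplets. Doublets were scored in scanpy 1.11.5 on anndata 0.12.19, intervals came from scipy 1.17.1, and plots from matplotlib 3.10.9, under pandas 2.3.3, numpy 2.4.6 and Python 3.11.15.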

Additional observations from a re-analysis of the deposited data

Results flagged for a closer look

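RNA of 5 of the 8 genes was found in the free RNA of the light damage library at a level whose interval lay above that of the control, as did 17.0% of 11104 genes tested, and 64.8% of these genes had a ratio above 0. Free RNA here is that of barcodes under 50 UMIs, which took no part in the comparisons, with 1259397 spliced and ambiguous UMIs in the control and 2553052 after light damage. Dct had 62 UMIs (49.2 CPM) in the control and 1185 (464 CPM) after light damage, a log2 ratio of 3.24 (2.87 to 3.63). Pmel had 11.9 CPM in the control and 55.2 CPM after light damage, Tyrp1 7.94 and 44.3 CPM, Mlana 3.97 and 17.6 CPM, and Gpnmb 9.53 and 41.9 CPM. The whole interval of the ratio lay past 2-fold for 4 of these genes and not for Mlana, at 2.15 (0.82 to 3.84).

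The sum of the 4 genes that define RPE droplets was higher in the free RNA as well. It was 3114 CPM in the control and 12224 CPM after light damage. Singly, 3 of the 4 had a log2 ratio above 0, and the lowest was -0.51. The estimated share of free RNA in RPE droplets was 9.06% in the control and 6.15% after light damage. This estimate takes all rod-gene UMIs in RPE droplets as free RNA. For other droplets, the same estimate from the 4 genes of the rule gave 1.13% and 0.656%.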

How the results depend on the processing

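No paired analysis was possible because each group is 1 library, and no library could be left out. Of 21 alternatives, 6 (the limits on Rpe65 and Rgr, droplets of 2000 to 8000 UMIs, and leaving out the droplet with the most UMIs of a gene) were chosen after seeing the data. All 8 genes were called higher in RPE than in other droplets under 20 of 21 alternatives in each library. Among these, leaving out the minimum for background genes repeats the calls of the 8 genes, and a call at 1.5-fold can only add calls. Neither could lower this count or the counts of calls that follow. With unspliced UMIs alone 4 were called in each, and the log2 ratio of Mitf turned to -0.24 after light damage. Between light damage and control RPE 1 gene was called in 19 of 21 alternatives, and 2 were with Rpe65 and Rgr at least 0.4% or at least 0.1%. Dct was called under 20 alternatives, and Mlana with Rpe65 and Rgr under 0.1%. Over all 21 alternatives the log2 ratio of Dct ran from 0.36 to 2.30. The limits on Rpe65 and Rgr were set after the data had been seen. Calls under them are therefore a description and no support for the result. Gpnmb ran from -0.77 to 1.62 and was at 0.20 in droplets of 2000 to 8000 UMIs. The log2 ratio of the summed genes, 0.87, was 0.97 with a minimum of 1000 UMIs, 0.95 without doublet removal, 0.99 in RPE droplets up to the median rod share, 0.78 with unspliced UMIs alone and 0.98 scaled by the median gene. It was 1.20, 0.15, 1.13 and 1.13 with Rpe65 and Rgr at least 0.4%, under 0.1%, at least 0.1% and at least 0.8%, 0.80 in droplets of 2000 to 8000 UMIs, and 0.98 without the top droplet of each gene. The causes of these shifts were not tested. Equal weight per droplet has no interval, and its calls rest on the ratio alone. Depth limits Slc45a2 most, with 19 UMIs in control RPE.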
